A study of Rattus norvegicus with 6 samples.

Results

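Mitochondrial carriers were compared between ShControl and Suz12-depleted IEC-6 cells, a rat cell line derived from the intestinal crypt. The members were chosen by name: a probe set was taken when it was annotated to exactly 1 symbol that is Slc25a followed by digits, or Ucp1, Ucp2, Ucp3, Mpc1, Mpc2, Mtch1 or Mtch2. These were 66 probe sets of 31042 tested and 46 genes of 14217 with 1 symbol. The control cells carried a scrambled short hairpin RNA and the ShSuz12 cells carried 1 short hairpin RNA clone against Suz12, each introduced by lentivirus and followed by puromycin selection of the cell population. The cells were grown in serum-containing medium. For the array cultures the sources used here name no other agent and do not give the cell density. RNA from 3 independent experiments of each line was measured on 6 Affymetrix rat arrays, as log2 values made by RMA, and a log2 fold change is the mean of the 3 ShSuz12 arrays minus that of the 3 control arrays. Only 1 hairpin clone was used, so effects of that hairpin and of the loss of Suz12 cannot be told apart.

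Carriers of the SLC25 family are small proteins of the inner mitochondrial membrane that exchange nucleotides, phosphate, amino acids, carboxylates and cofactors between the matrix and the cytosol. The uncoupling proteins belong to the same family, and the mitochondrial pyruvate carrier is a structurally unrelated complex of Mpc1 and Mpc2. Carriers are encoded in the nucleus, made in the cytosol and mostly brought to the inner membrane through the TOM complex and the TIM22 complex. Intestinal epithelium draws much of its energy from glutamine and, in the colon, from fatty acids. The name of the set did not hold for all of its members: Slc25a46, Mtch1 and Mtch2 are family members of the outer mitochondrial membrane, and Slc25a17 is a carrier of peroxisomes.

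Suz12 is a subunit of PRC2, which methylates lysine 27 of histone H3 and is known for binding promoters rich in CpG. The promoters of 4 carriers on which the results below turn are therefore shown, from RefSeq with the GRCr8 build: Slc25a16 for the largest fall by the brightest probe set, Slc25a27 for the largest rise, and Mpc1 and Mpc2 as subunits of a single carrier of which Mpc2 alone was called. Each is the 250 bases before the start of the gene, 5′ to 3′ on the strand of the gene, with every CpG in capitals. The Slc25a16 sequence lies at chr20:25715008-25715257 on the minus strand and that of Slc25a27 at chr9:24804058-24804307 on the plus strand. That of Mpc1 lies at chr1:54996959-54997208 on the minus strand and that of Mpc2 at chr13:80261006-80261255 on the plus strand.
Slc25a16: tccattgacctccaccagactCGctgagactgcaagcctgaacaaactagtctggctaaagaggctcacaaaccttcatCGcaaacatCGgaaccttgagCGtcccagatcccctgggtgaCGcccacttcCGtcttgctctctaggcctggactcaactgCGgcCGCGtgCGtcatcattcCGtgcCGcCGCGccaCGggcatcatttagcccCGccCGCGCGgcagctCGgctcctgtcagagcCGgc
Slc25a27: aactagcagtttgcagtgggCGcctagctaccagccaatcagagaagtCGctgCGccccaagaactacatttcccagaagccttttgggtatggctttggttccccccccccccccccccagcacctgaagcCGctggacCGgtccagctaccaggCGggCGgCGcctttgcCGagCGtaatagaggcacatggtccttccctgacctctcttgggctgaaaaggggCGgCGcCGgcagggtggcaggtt
Mpc1: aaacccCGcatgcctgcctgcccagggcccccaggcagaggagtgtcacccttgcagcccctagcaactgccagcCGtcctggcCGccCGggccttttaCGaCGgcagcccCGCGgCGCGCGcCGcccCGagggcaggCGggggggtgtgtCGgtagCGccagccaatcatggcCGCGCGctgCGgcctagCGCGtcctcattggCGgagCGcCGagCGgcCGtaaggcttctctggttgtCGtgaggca
Mpc2: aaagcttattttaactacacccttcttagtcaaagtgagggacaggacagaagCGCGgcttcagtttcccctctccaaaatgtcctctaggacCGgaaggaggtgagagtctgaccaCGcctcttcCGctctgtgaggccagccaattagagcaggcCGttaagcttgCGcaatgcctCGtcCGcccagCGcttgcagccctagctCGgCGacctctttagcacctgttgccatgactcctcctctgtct
The 4 windows held 21, 13, 28 and 12 CpG, in the same order, with 61.6%, 62.8%, 72.4% and 55.2% G and C. No values for histone methylation at these sites were used here.

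The Suz12 probe set read 8.45, 8.55 and 8.77 on the control arrays against 5.82, 5.77 and 5.91 on the ShSuz12 arrays (log2 fold change -2.76, SE 0.09, adjusted p = 2.78e-07 by limma), so 14.8% of the control level was left. Correlations across probe sets were at least 0.997 within a group and from 0.979 to 0.980 between groups. The medians of the arrays lay between 6.15 and 6.17 in control and between 6.26 and 6.27 in ShSuz12, and the median log2 fold change over all probe sets was -0.05. Subtracting the median of each array lowers every log2 fold change by 0.10. Among 18 markers of intestinal epithelium, 9 lay below the 40th percentile on every array in both lines, Epcam, Krt18 and Vil1 among them, while Cdh1 and Krt8 were well expressed. Of the 18, 2 fell (11.1%), Cdh1 (-0.76) and Krt8 (-0.41), against 23.3% of all genes. Another 3 rose (16.7%), Lgr5 (3.59), Cdx2 (1.56) and Krt19 (1.19), each past 2-fold, against 17.1% of all genes. The mean log2 level of 14 markers of fibroblasts and smooth muscle was 7.91 to 7.95 on the control arrays and 8.66 to 8.68 on the ShSuz12 arrays. Of these 14, 7 rose (50%) and 2 fell (14.3%), against 17.1% and 23.3% of all genes. The rises were those of Lum (2.46), Col1a2 (2.34), Col3a1 (2.33), Pdgfrb (1.66), Dcn (1.32), Myh11 (0.65) and Des (0.36). The falls were those of Acta2 (-0.66) and Tagln (-0.35). The part of these markers in the carrier results was not tested.

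Small changes in both directions were found among the carriers, and none reached 2-fold. By the brightest probe set of each gene, 13 of 46 genes were lower in ShSuz12 cells (28.3%) and 4 were higher (8.70%), at an adjusted p under 0.05 by limma, against 23.3% lower and 17.1% higher among all genes on the array. The remaining 29 genes were not called, and Slc25a16 and Slc25a46 were the only 2 called genes past 1.5-fold. With the median of each array subtracted the split was 22 lower (47.8%) and 1 higher (2.17%), Slc25a27, against 41.7% lower and 13.6% higher among all genes on that scale. Over the 66 probe sets, 18 were lower (27.3%) and 7 were higher (10.6%), against 19.5% and 14.8% of all probe sets. At 2-fold, 3.49% of all probe sets were called and 0 of the carriers. The count of lower genes was 8 without control replicate 1 or without ShSuz12 replicate 1, 2 or 3, and the count of higher genes was 2 without control replicate 1 or ShSuz12 replicate 3 and 1 without ShSuz12 replicate 2. The shares of all genes called with a single array left out were not worked out. These counts therefore do not show whether carriers lost calls more often than other genes. In bulk RNA, fewer cells of a type and less RNA per cell cannot be told apart.

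The median log2 fold change of the carriers was -0.07, with quartiles of -0.19 and 0.06, and that of all genes was -0.05, with quartiles of -0.19 and 0.10. The median size of the change, whatever its sign, was 0.129 for carriers and 0.158 for all genes. The values of the 3 control arrays did not overlap with those of the 3 ShSuz12 arrays for 27 carriers (58.7%), against 55.7% of all genes. By genes, carriers were thus close to the array as a whole in the share that was lower and in the share without overlap. They were less close in the share that was higher (8.70% against 17.1%) and, by probe sets, in the share that was lower (27.3% against 19.5%). Whether these shares differ was not tested. The spread between arrays was small, with a median SD of 0.0593 in control and 0.0445 in ShSuz12 cells (n = 3 each).

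**Figure D1:**
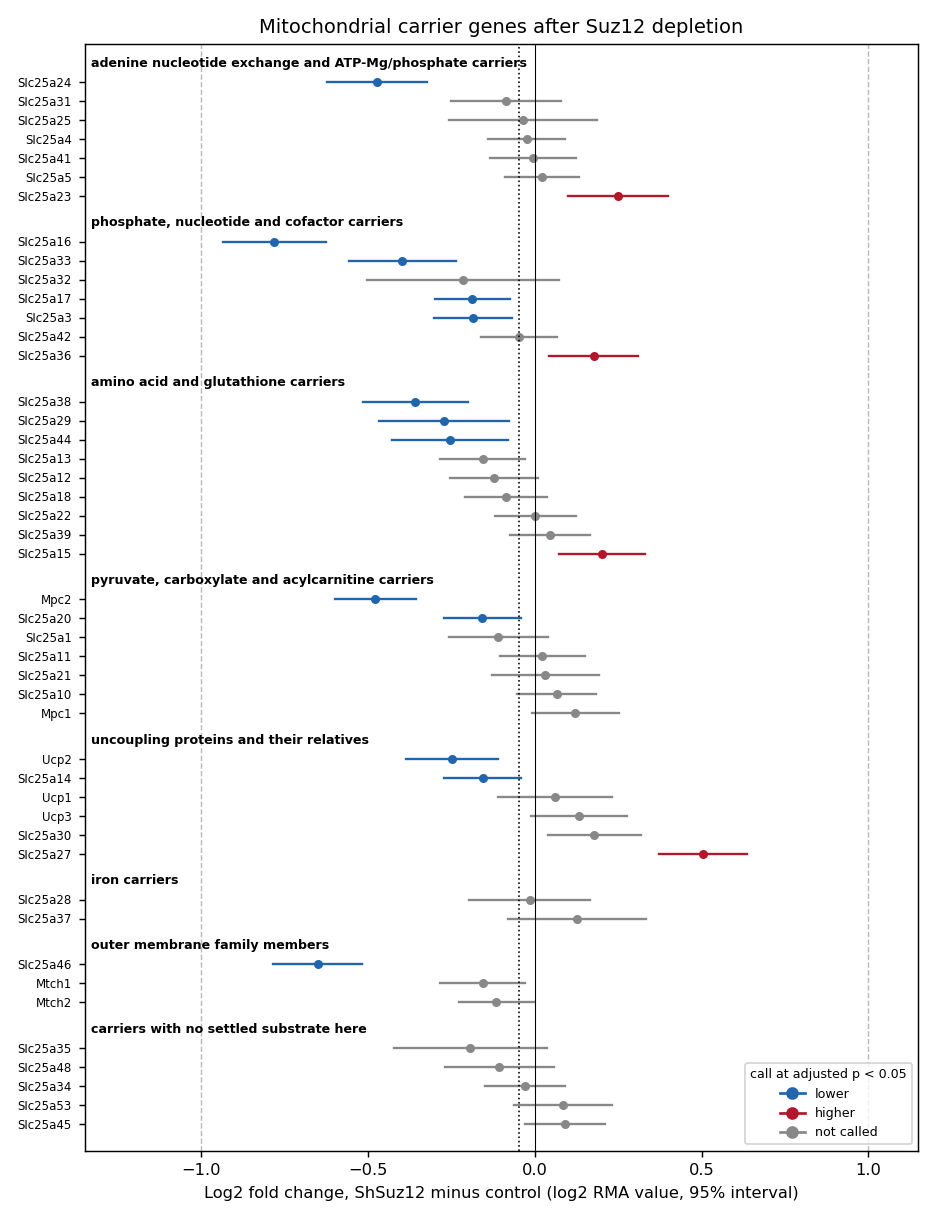
Log2 fold change (x axis, ShSuz12 minus control, log2 RMA value) of the 46 carrier genes by their brightest probe set, grouped by what they carry; points are differences of the means of 3 and 3 arrays, bars are unadjusted 95% intervals from limma, the dotted line is the median of all probe sets (-0.05) and dashed lines mark 2-fold. The 13 lower genes (blue) and 4 higher genes (red) all lie inside the 2-fold lines, and Slc25a16 and Slc25a46 lie farthest to the left.

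Adenine nucleotide carriers set the exchange of ATP made in the matrix for ADP from the cytosol, and their main forms in somatic cells are Slc25a4 and Slc25a5. Slc25a4 read 12.65, 12.66 and 12.66 in control cells and 12.66, 12.65 and 12.59 in ShSuz12 cells (log2 fold change -0.02, 95% interval -0.14 to 0.09, adjusted p = 0.742 by limma). Slc25a5 read 12.37, 12.35 and 12.35 against 12.40, 12.37 and 12.36 (0.02, interval -0.09 to 0.13, adjusted p = 0.775). The groups overlapped for both, and each interval stays well under 1.5-fold. Slc25a31, the germ cell form, lay below the 40th percentile and differed by -0.09 between the groups (adjusted p = 0.393).

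The carriers that exchange ATP-Mg for phosphate, and so set the size of the nucleotide pool in the matrix, gave 1 lower and 1 higher gene among 4. With the adenine nucleotide carriers they made a group of 7, with 14.3% lower and 14.3% higher, against 23.3% and 17.1% of all genes. Slc25a24 read 9.62, 9.76 and 9.80 in control cells and 9.28, 9.20 and 9.28 in ShSuz12 cells, and every ShSuz12 array was below every control array. It fell by 0.47 on the log2 scale (SE 0.06, adjusted p = 8.73e-04 by limma), or by 0.42 relative to the median of all probe sets. Slc25a23, of the same subfamily, read 6.39, 6.30 and 6.42 against 6.52, 6.65 and 6.69 and rose by 0.25 (adjusted p = 0.0195). That call was lost without control replicate 2, ShSuz12 replicate 2 or ShSuz12 replicate 3 (0.21 to 0.23, adjusted p from 0.0523 to 0.0711) and with array medians subtracted (0.15, adjusted p = 0.0817). A dimmer probe set of Slc25a23 rose by 0.36 (adjusted p = 0.00376) and kept its call in each of these fits, and the dimmest had a value of -0.12 (adjusted p = 0.246). With array medians subtracted, the dimmest was called lower (-0.23, adjusted p = 0.0451). Slc25a25 (-0.04) and Slc25a41 (0.00 to 2 decimals) were not called.

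Among 7 carriers of phosphate, nucleotides and cofactors, 4 were lower (57.1%), 1 was higher (14.3%) and 2 were not called, with a median of -0.19, against 23.3% lower and 17.1% higher over all genes. Of the 4 lower calls, those of Slc25a3 and Slc25a17 were lost on leaving out single arrays, as given below. Slc25a16, which has been linked to the transport of coenzyme A, read 8.27, 8.24 and 8.27 in control cells and 7.35, 7.50 and 7.57 in ShSuz12 cells. The control arrays were nearly identical and all ShSuz12 arrays lay far below them. It fell by 0.78 on the log2 scale (SE 0.07, adjusted p = 6.60e-05 by limma), or by 0.73 relative to the median of all probe sets, and on the linear scale its level fell by 41.8%. Slc25a42, another carrier of coenzyme A, did not pass the test (-0.05, adjusted p = 0.507).

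Slc25a33 and Slc25a36 both carry pyrimidine nucleotides, which the matrix needs for mitochondrial DNA and RNA. Slc25a33 read 8.16, 8.17 and 7.98 in control cells against 7.67, 7.69 and 7.77 in ShSuz12 cells and fell by 0.40 (SE 0.07, adjusted p = 0.00294 by limma). Slc25a36 read 10.21, 10.32 and 10.27 against 10.49, 10.45 and 10.38 and rose by 0.18 (adjusted p = 0.0472). The groups did not overlap for either gene. The rise of Slc25a36 was the less certain: its other probe set had a value of -0.01 (adjusted p = 0.955), it was 0.08 with array medians subtracted (adjusted p = 0.320), and the call was lost without any single array other than control replicate 2 (0.15 to 0.21, adjusted p from 0.0547 to 0.143).

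Slc25a3, the phosphate carrier that supplies ATP synthase, read 12.92, 12.95 and 12.87 in control cells and 12.74, 12.73 and 12.71 in ShSuz12 cells and fell by 0.19 (adjusted p = 0.0237 by limma). Slc25a17 of the peroxisome read 9.51, 9.53 and 9.51 against 9.34, 9.30 and 9.34 and also fell by 0.19 (adjusted p = 0.0188). Neither pair of groups overlapped, but the changes were small. The call of Slc25a3 was lost without any single array other than control replicate 3 (-0.19 to -0.17, adjusted p from 0.0564 to 0.0735), and that of Slc25a17 without ShSuz12 replicate 1 or 2 (-0.19 and -0.18, adjusted p = 0.0518 and 0.0676). Slc25a32, a carrier of folate and FAD, lay low on the array and had a value of -0.22 (adjusted p = 0.226) at its brighter probe set. Its dimmer probe set fell by 0.36 (adjusted p = 0.0377) and lost that call without control replicate 2 or 3 or ShSuz12 replicate 2 or 3 (-0.38 to -0.27, adjusted p from 0.0808 to 0.118).

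**Figure D2:**
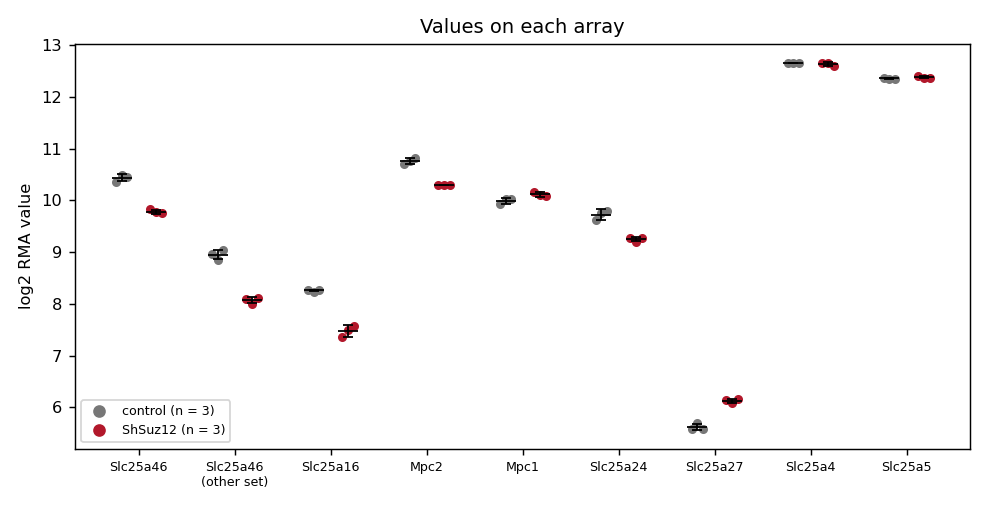
Log2 RMA value (y axis) of 8 carriers on each of the 3 control arrays (grey) and 3 ShSuz12 arrays (red), with the mean as a line and the SD as a bar; Slc25a46 is shown by both probe sets. Levels of different probe sets cannot be set against each other, and the groups are apart for every carrier drawn except Slc25a4 and Slc25a5, which overlap.

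Of 9 carriers of amino acids and glutathione, 3 were lower (33.3%), 1 was higher (11.1%) and 5 were not called, with a median of -0.12, beside 23.3% and 17.1% of all genes. Slc25a38 brings glycine into the matrix for heme synthesis, and it read 7.21, 7.27 and 7.42 in control cells and 6.96, 6.97 and 6.89 in ShSuz12 cells. Its fall of 0.36 (SE 0.07, adjusted p = 0.00453 by limma) kept its call without each array in turn. Slc25a29, a carrier of basic amino acids, read 7.49, 7.62 and 7.51 against 7.38, 7.09 and 7.33 and fell by 0.27 (adjusted p = 0.0380). Slc25a44, a carrier of branched-chain amino acids, read 7.51, 7.69 and 7.45 against 7.28, 7.35 and 7.24 and fell by 0.26 (adjusted p = 0.0314), while its other probe set had a value of 0.05 (adjusted p = 0.704). Neither of these falls was stable to the loss of an array. The call of Slc25a29 was lost without any single array other than ShSuz12 replicate 1 (-0.30 to -0.19, adjusted p from 0.0625 to 0.0990), and that of Slc25a44 without control replicate 1 or 2 or ShSuz12 replicate 1 or 3 (-0.28 to -0.18, adjusted p from 0.0554 to 0.0999).

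Slc25a15 exchanges ornithine for citrulline across the inner membrane, a step of the urea cycle and of arginine synthesis in the gut. It read 8.03, 8.12 and 8.13 in control cells and 8.25, 8.34 and 8.29 in ShSuz12 cells, and it rose by 0.20 (adjusted p = 0.0240 by limma). Its 5 other probe sets had values from -0.14 to -0.01, none of them called. The rise was not called without control replicate 1 or ShSuz12 replicate 2 or 3 (0.17 to 0.20, adjusted p from 0.0654 to 0.0856) or with array medians subtracted (0.10, adjusted p = 0.167). On that scale, other probe sets were called lower, at -0.22 (adjusted p = 0.0358) and -0.24 (adjusted p = 0.0162). These sets were also lower after a second quantile normalization (adjusted p = 0.0419 and 0.0234), where the rise of the brightest kept its call (0.22, adjusted p = 0.0181).

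The aspartate-glutamate carriers of the malate-aspartate shuttle, Slc25a12 and Slc25a13, had values of -0.12 (adjusted p = 0.138) and -0.16 (adjusted p = 0.0602) at their brightest probe sets by limma. A dimmer probe set of Slc25a13 read 8.16, 8.03 and 8.16 against 7.83, 7.86 and 7.77 and fell by 0.30 (adjusted p = 0.00562). With array medians subtracted, the brightest probe sets of both genes were called lower (adjusted p = 0.0142 and 0.00619), on a scale where 41.7% of all genes were lower. The glutamate carriers Slc25a22 (0.00 to 2 decimals) and Slc25a18 (-0.09) and the glutathione carrier Slc25a39 (0.05) were not called.

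The mitochondrial pyruvate carrier needs both of its subunits, and only Mpc2 passed the test. Mpc2 read 10.71, 10.77 and 10.83 in control cells and 10.29 on each of the 3 ShSuz12 arrays. It fell by 0.48 (SE 0.05, adjusted p = 2.72e-04 by limma), or by 0.43 relative to the median of all probe sets, and on the linear scale it fell by 28.2%. Mpc1 read 9.92, 10.03 and 10.02 against 10.17, 10.09 and 10.08, so its ShSuz12 arrays were above every control array. The difference of 0.12 did not pass the test (95% interval -0.01 to 0.25, adjusted p = 0.140). It was 0.02 with array medians subtracted (adjusted p = 0.782) and was called higher after a second quantile normalization (0.17, adjusted p = 0.0423) and with an intensity trend (adjusted p = 0.0470). The 2 promoters shown above differ in CpG, with 28 for Mpc1 and 12 for Mpc2. A link between CpG and these values was not tested.

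Slc25a20, which brings acylcarnitines into the matrix for fatty acid oxidation, read 8.97, 8.99 and 8.97 in control cells and 8.85, 8.83 and 8.78 in ShSuz12 cells. Its fall of 0.16 (adjusted p = 0.0443 by limma) was not called without any single array (-0.17 to -0.13, adjusted p from 0.0755 to 0.135). The citrate carrier Slc25a1 (-0.11), the oxoglutarate carrier Slc25a11 (0.02), the oxodicarboxylate carrier Slc25a21 (0.03) and the dicarboxylate carrier Slc25a10 (0.07) were not called by their brightest probe sets. A dimmer probe set of Slc25a10 read 5.89, 5.91 and 5.82 against 5.17, 5.51 and 5.52 and fell by 0.47 (adjusted p = 0.00632), against the direction of the brighter one.

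**Figure D3:**
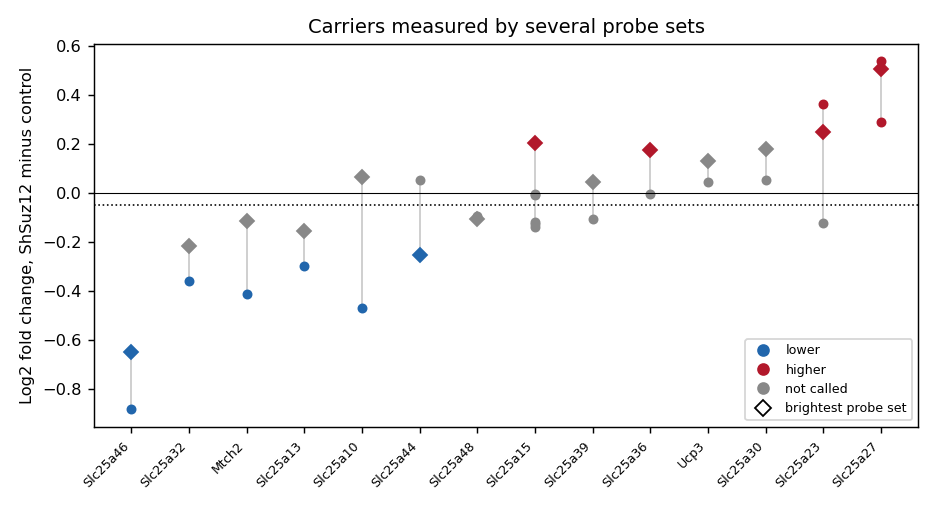
Log2 fold change (y axis, ShSuz12 minus control) of every probe set of the 14 carriers measured by more than 1, with the brightest as a diamond; blue is lower, red is higher and grey is not called at an adjusted p under 0.05, and the dotted line is the median of all probe sets. Only Slc25a46 (all lower) and Slc25a27 (all higher) have the same call at every probe set among genes with a call.

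Uncoupling proteins and their relatives gave 2 lower genes (33.3%), 1 higher gene (16.7%) and 3 not called among 6, where 23.3% and 17.1% of all genes were called. Ucp2, the form found in gut and immune cells, read 10.56, 10.58 and 10.44 in control cells and 10.25, 10.26 and 10.33 in ShSuz12 cells, and it fell by 0.25 (SE 0.06, adjusted p = 0.0130 by limma). Slc25a27, a relative best known from brain, read 5.58, 5.69 and 5.59 against 6.14, 6.07 and 6.15, with no overlap. It rose by 0.51 (SE 0.06, adjusted p = 3.01e-04), an increase of 41.9%, or by 0.55 relative to the median of all probe sets. Its other probe sets rose by 0.54 (adjusted p = 2.92e-04) and 0.29 (adjusted p = 0.0393). The smallest of these rises was not called without control replicate 2 or 3 or ShSuz12 replicate 1 or 3 (0.20 to 0.31, adjusted p from 0.0759 to 0.106) or with array medians subtracted (0.19, adjusted p = 0.103).

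Slc25a14, another relative, read 7.31, 7.25 and 7.31 in control cells against 7.13, 7.14 and 7.12 in ShSuz12 cells and fell by 0.16 (adjusted p = 0.0438 by limma). The call was lost without any single array other than control replicate 2 (-0.16 to -0.14, adjusted p from 0.0964 to 0.110). Slc25a30 had a value of 0.18 (adjusted p = 0.0531) and Ucp3 of 0.13 (adjusted p = 0.143), each without overlap between groups. Ucp1, the uncoupling protein of brown fat, stayed between 3.94 and 4.18 on all arrays, below the 40th percentile (0.06, adjusted p = 0.584). Of 10 markers of brown adipocytes, Ucp1 included, 8 lay below that percentile on every array. The only one to rise was Cidea (0.85), or 10% of the list against 17.1% of all genes.

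Slc25a46, an outer membrane protein linked to mitochondrial fission and lipid traffic, was lower by both of its probe sets. The brighter read 10.36, 10.50 and 10.44 in control cells and 9.83, 9.77 and 9.75 in ShSuz12 cells and fell by 0.65 (SE 0.06, adjusted p = 7.85e-05 by limma), so that its linear level fell by 36.3%. The dimmer read 8.97, 8.85 and 9.03 against 8.09, 8.00 and 8.11 and fell by 0.88 (SE 0.07, adjusted p = 2.87e-05), so that its linear level fell by 45.8%. Relative to the median of all probe sets, they fell by 0.60 and 0.84. Mtch2, which inserts proteins into the outer membrane, had a value of -0.12 (adjusted p = 0.107) at its brightest probe set, while a dimmer set read 9.57, 9.60 and 9.68 against 9.35, 9.17 and 9.09 and fell by 0.41 (adjusted p = 0.00365). Mtch1 had a value of -0.16 (adjusted p = 0.0618), and with array medians subtracted the brightest sets of Mtch1 and Mtch2 were called lower (adjusted p = 0.00738 and 0.00900). On that scale 41.7% of all genes were lower.

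The iron carriers of heme and iron-sulfur cluster synthesis, Slc25a28 (-0.02) and Slc25a37 (0.13), were not called, and their groups overlapped. Neither were the 5 carriers that were not assigned to a role here, Slc25a34, Slc25a35, Slc25a45, Slc25a48 and Slc25a53, with values from -0.19 to 0.09. Over all 29 genes without a call the log2 fold change ran from -0.22 to 0.18. For 28 of the 46 genes the 95% interval lay within 0.3 of 0 on the log2 scale. Of the 46 genes, 38 reached the 40th percentile on 2 or more arrays of either group, and the 8 that did not were all uncalled.

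Carriers with related roles were also compared within each array, as the log2 value of the first minus that of the second, so that a shift common to an array drops out. The 8 pairs were chosen after the values had been seen, so the differences are descriptions, and an exact permutation test of 3 against 3 arrays, two-sided, cannot go below p = 0.1. Mpc1 minus Mpc2 was -0.79, -0.74 and -0.80 on the control arrays and -0.12, -0.19 and -0.21 on the ShSuz12 arrays, a change of 0.60 (exact p = 0.1, adjusted p = 0.2 over the 8 pairs). The change was 0.72 for Slc25a23 minus Slc25a24, 0.57 for Slc25a36 minus Slc25a33 and 0.75 for Slc25a27 minus Ucp2, each without overlap and with the same exact p. Slc25a4 minus Slc25a5 changed by -0.05 (exact p = 0.2), Mtch1 minus Mtch2 by -0.04 (exact p = 0.3), Slc25a12 minus Slc25a13 by 0.03 (exact p = 0.6) and Slc25a28 minus Slc25a37 by -0.14 (exact p = 0.3), and in these 4 pairs the groups overlapped.

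**Figure D4:**
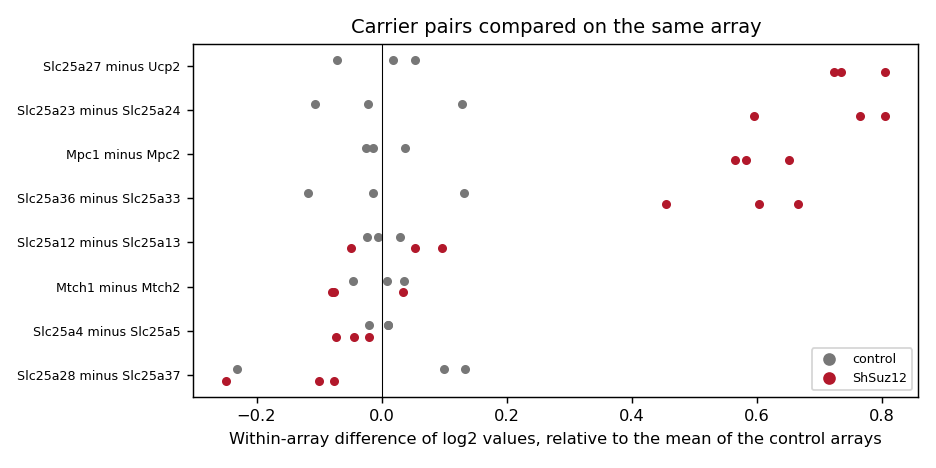
Within-array difference of log2 values for 8 pairs of carriers (x axis, relative to the mean of the 3 control arrays), with control arrays in grey and ShSuz12 arrays in red. In the upper 4 pairs the ShSuz12 arrays lie to the right of all control arrays, by 0.57 to 0.75 on average, and in the lower 4 the groups overlap.

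Genes of the import machinery, without which carriers do not reach the inner membrane, were called in a single direction. Of 16 genes of the TOM and TIM22 routes, 10 were lower (62.5%) and 0 were higher, with a median log2 fold change of -0.20, against 23.3% lower, 17.1% higher and a median of -0.05 over all genes. Tomm40, the channel of the outer membrane, fell by 0.40 (adjusted p = 0.00366 by limma), and Timm29, a subunit of the TIM22 complex, fell by 0.39 (adjusted p = 7.45e-04). Timm10b fell by 0.37 (adjusted p = 0.00142) and Timm9, a chaperone of the space between the membranes, by 0.26 (adjusted p = 0.0136). The only positive difference was that of Tomm70 (0.02, adjusted p = 0.824), and the methods' t-test with adjustment called 11 lower and 0 higher. The lower count was 7 without ShSuz12 replicate 2 and 8 or 9 without any other single array. It was 8 after a second quantile normalization, for which the share over all genes was not worked out. With array medians subtracted it was 14, on a scale where 41.7% of all genes were lower. None reached 2-fold, and no set test was run.

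Among 17 measured genes for other transport across the mitochondrial envelope, 7 were lower (41.2%) and 2 were higher (11.8%), with a median of -0.06, against 23.3% and 17.1% of all genes. The lower count was 4 without control replicate 1, control replicate 3 or ShSuz12 replicate 2, and 3 without ShSuz12 replicate 3. Mcu, the pore of the calcium uniporter, fell by 0.67 (adjusted p = 9.85e-04 by limma), while Mcub, its inhibitory paralog, rose by 0.40 (adjusted p = 0.00365). The serine carrier Sfxn1 fell by 0.65 (adjusted p = 7.58e-05) and the porphyrin transporter Abcb6 by 0.40 (adjusted p = 4.20e-04).

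Enzymes that use the carried substrates were called in both directions, 9 lower (31.0%) and 7 higher (24.1%) of 29 measured, with a median of -0.02, against 23.3% and 17.1% of all genes. The changes past 2-fold were 2 rises: Ldhb, a lactate dehydrogenase subunit, by 2.06 (adjusted p = 9.76e-07 by limma) and Arg2, the mitochondrial arginase that makes ornithine, by 1.99 (adjusted p = 5.46e-06). Pdk3, a kinase that inhibits pyruvate dehydrogenase, rose by 0.67 (adjusted p = 4.13e-05), and Acly, which splits exported citrate, fell by 0.45 (adjusted p = 0.00125). These enzymes stand next to the pyruvate, ornithine and citrate carriers, whose own changes were below 1.5-fold.

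Of 17 regulators of mitochondrial biogenesis, 8 were lower (47.1%) and 2 were higher (11.8%), with a median of -0.11, against 23.3% and 17.1% of all genes. The lower count was 5 without ShSuz12 replicate 2 and 4 by the methods' t-test with adjustment. Myc fell by 0.84 (adjusted p = 3.09e-05 by limma) and Tfam, which packages and transcribes mitochondrial DNA, fell by 0.78 (adjusted p = 2.76e-05). Atf5, a factor of the mitochondrial stress response, fell by 0.46 (adjusted p = 0.0205), and Tfb2m, a mitochondrial transcription factor, fell by 0.39 (adjusted p = 0.00871). The rises were those of the nuclear receptors Ppard (0.30, adjusted p = 0.0102) and Esrra (0.28, adjusted p = 0.00460), given beside the 4 genes chosen by size. Ppargc1a (0.19, adjusted p = 0.104) and Nrf1 (0.16, adjusted p = 0.164) were not called.

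**Figure D5:**
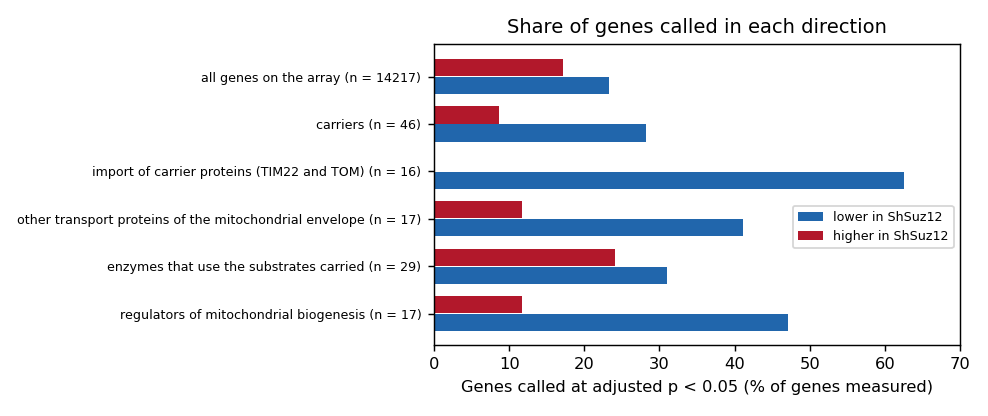
Share of genes called at an adjusted p under 0.05 (x axis, % of genes measured), lower in blue and higher in red, for all genes, the carriers and 4 lists of related genes. Carriers were lower in 28.3% against 23.3% of all genes, and the import list in 62.5%.

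RefSeq promoters, of 300 bases from 250 before to 50 after the start, were available for 41 of the 46 carriers and for 27457 genes in all. These 27457 genes were not limited to the 14217 array genes behind the shares of calls given above. The median number of CpG in a window was 17 for the carriers and 7 for the 27457 genes. It was 18 for 12 lower carriers, 15 for 3 higher carriers and 20 for 26 that were not called. The letters GCGCATGC, a form of the NRF1 motif, were found on either strand in 3 carriers (7.32%), Mtch2, Slc25a13 and Slc25a31, against 2.66% of all promoters. The CREB letters TGACGTCA, the same on both strands, were found in 2 (4.88%), Slc25a25 and Slc25a33, against 1.91%. The ERR letters TCAAGGTCA and the ATF4 letters TGATGCAA were in 0 of the 41, against 0.412% and 0.743%. By their brightest probe sets, Slc25a33 was lower, and Mtch2, Slc25a13, Slc25a25 and Slc25a31 were not called. The dimmer probe sets of Mtch2 and Slc25a13 were lower, as given above.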

How the data were processed

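RNA from 3 ShControl and 3 ShSuz12 samples, from independent experiments, had been hybridised to Affymetrix RAE230 2.0 arrays. The authors deposited log2 values made with the robust multi-array average (RMA), which corrects background, normalizes across arrays and summarizes each probe set as 1 value; the sources used here give no version of it. Normalization between arrays can hide a shift shared by most genes.

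Leaving out 57 control probe sets, the lmFit and eBayes functions of limma 3.58.1, run under R 4.3.3, tested ShSuz12 against control for all 31042 others (two-sided, p adjusted across all of these by Benjamini-Hochberg); the threshold for a call was an adjusted p of 0.05. Symbols came from the platform annotation: 1 symbol was given for 20826 probe sets, several for 436, and 9780 were absent from it. A gene was represented by its brightest probe set. The GRCr8 gene table changed 0 symbols and holds 56 symbols of the family, 10 of which are not among the members. Array values were given for every called carrier gene, and up to 4 called genes were named for each related list. The members and lists were chosen with earlier results of these data known. Exact permutation tests used scipy 1.17.1 and figures matplotlib 3.10.9. The precision is limited by 3 arrays a group, and p-values measure the spread between experiments within 1 cell line a group. Same-numbered samples did not deviate together (r = 0.0172, -0.0424 and -0.0641). Alternatives were other tests, filters, scalings and thresholds, the replicate block, averaging over the probe sets of a gene, and omission of each array in turn. Within-array differences and the addition of Slc25a51 were chosen after seeing the data.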

Additional observations from a re-analysis of the deposited data

How the results depend on the processing

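The log2 fold change of Suz12 stayed between -2.86 and -2.67 in every fit, and no call of a carrier probe set reversed in any of the 13 alternative fits. Of 25 called probe sets, 13 kept their call in every one of these fits that retained them and 12 lost it in at least 1. With array medians subtracted, 30 probe sets were lower and 3 higher, and 22 genes were lower and 1 higher, by the construction of a shift of 0.101 towards lower values. At an adjusted p under 0.01, 10 probe sets and 6 genes were lower and 3 probe sets and 1 gene were higher. At 1.5-fold, 3 probe sets and 2 genes were lower and 0 of either were higher, and at 2-fold all 4 counts were 0. The methods' t-test with adjustment gave 4 higher probe sets and 2 higher genes, and without adjustment 7 higher genes. The 60th percentile filter left 3 higher probe sets, and the mean of the probe sets of a gene gave 2 higher genes. With the replicate block, 8 genes were lower in place of 13, and 3 were higher, with 12 probe sets lower and 6 higher; the numbers did not pair the samples. Leaving out each array gave 12 to 14 lower and 4 to 5 higher probe sets, and 8 to 10 lower and 1 to 3 higher genes. Shares over all genes were worked out for the main fit and with array medians subtracted only. The counts from other fits, those of the lists included, therefore cannot be set against the array as a whole. The lists of related genes had 35 to 56 calls against 45, and role groups with more lower than higher calls numbered 4 to 7 against 5. Probe sets near background limit what could be seen for 8 carriers. The causes of these differences were not tested.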

Other observations

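Slc25a51, a carrier of NAD into the matrix, was left out of the members because its probe sets list that symbol more than once in the annotation. Its brighter probe set read 10.94, 10.97 and 10.96 in control cells and 11.01, 11.06 and 11.10 in ShSuz12 cells, with a value of 0.10 (adjusted p = 0.180 by limma). The dimmer read 10.13, 10.11 and 10.16 against 10.27, 10.31 and 10.32 and rose by 0.17 (adjusted p = 0.0327). The groups did not overlap at either probe set. With this gene counted by its brighter probe set, 13 carriers were lower and 4 higher, as without it.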
